A study of Homo sapiens with 18 samples.

Results

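The genes described here encode the plasminogen activators and their closest partners: the 2 activators PLAU and PLAT, the urokinase receptor PLAUR, and the inhibitory serpins SERPINE2 and SERPINB2. They were taken from the gene count matrix by mapping its Ensembl identifiers to these 5 symbols, which gave 5 of the 58395 rows. RNA was sequenced from BxPC-3, an established human pancreatic adenocarcinoma line. Cells of every group were kept in RPMI with 10% fetal bovine serum and antibiotics, and received phosphate-buffered saline (vehicle), hepatocyte growth factor (HGF, which activates the receptor tyrosine kinase MET) at 80 ng/ml, or macrophage-stimulating protein (MSP, which activates the related receptor RON) at 100 ng/ml. RNA was taken after 1 h or 4 h of each treatment, with 3 libraries in each of the 6 groups and 18 in all. The labels do not say whether the 3 libraries of a group came from separate cultures, so the tests measure only the spread between these libraries, which may be technical.

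Plasminogen is a secreted zymogen that becomes plasmin, a broad serine protease, when it is cut by urokinase (the product of PLAU) or by tissue plasminogen activator (PLAT). Urokinase bound to its receptor uPAR (PLAUR) places this activity at the cell surface, where plasmin degrades fibrin and matrix proteins and activates other enzymes. Serpins trap the activators in covalent complexes. Protease nexin-1 (SERPINE2) acts on thrombin, urokinase and tissue plasminogen activator, and plasminogen activator inhibitor 2 (SERPINB2) acts on urokinase and is found mostly inside cells. Tumours of the pancreas are among those in which this system has been widely studied.

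PLAU (ENSG00000122861) lies at chr10:73909177-73917497 on the plus strand. PLAUR (ENSG00000011422) lies at chr19:43646095-43670547 on the minus strand. SERPINE2 (ENSG00000135919) lies at chr2:223975112-224039319 on the minus strand, and SERPINB2 (ENSG00000197632) at chr18:63871692-63903890 on the plus strand, within a cluster of clade B serpin genes. These positions are from GENCODE 29 on GRCh38. In that annotation 31.1% of the exon bases of PLAU are shared with C10orf55 on the opposite strand, which had 42 to 72 counts per library. SERPINB10 on the same strand shares 19.9% of the exon bases of SERPINB2 and had 7 to 25 counts. How reads over shared exons were assigned, and whether strand was used, is not stated in the sources at hand.

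The bases before the RefSeq start site of SERPINB2 and a short stretch near that of PLAUR are shown. They were chosen because these genes had the largest responses of the 5 and both windows hold a match to the AP-1 motif, in capitals. They were read from RefSeq windows of 250 bases before the start site (GRCh38.p14), which were used for 4 of the 5 genes. The SERPINB2 stretch is chr18:63887455-63887699 on the plus strand and is shown up to the first base of the window annotated as exon. The RefSeq start site used is at 63887705, whereas GENCODE 29 starts the gene at 63871692. The stretch thus lies within the GENCODE gene. For PLAUR only the 30 bases at chr19:43670337-43670366 on the minus strand are shown, since GENCODE 29 places this window inside the first exon of a longer transcript.
SERPINB2: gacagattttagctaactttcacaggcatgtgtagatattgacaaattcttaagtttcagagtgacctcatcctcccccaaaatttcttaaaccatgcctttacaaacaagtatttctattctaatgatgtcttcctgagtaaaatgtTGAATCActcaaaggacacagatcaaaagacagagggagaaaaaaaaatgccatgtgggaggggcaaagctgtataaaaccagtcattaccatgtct
PLAUR: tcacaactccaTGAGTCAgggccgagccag

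AP-1 was searched as TGANTCA, which reads the same on both strands, and matched at positions -102 to -96 from the RefSeq start site of SERPINB2 and -186 to -180 from that of PLAUR. A match to these letters was present in 6.57% of 35116 windows of the same length. The windows of PLAU and SERPINE2 held none. In GENCODE 29 both PLAU windows lay wholly within annotated exons of either strand, as did 164 of 250 bases of 1 SERPINE2 window. The absence there thus does not describe sequence outside exons alone. SERPINB2 also had TATAAA at -30 to -25, a match found in 10.7% of windows. The ETS core AGGAAG, searched on both strands and present in 28.7% of windows, matched once in the windows of SERPINB2 and PLAUR and once in 1 of the 2 windows of PLAU. The GC box GGGCGG, also searched on both strands and present in 42.6% of windows, occurred in PLAU and SERPINE2 windows and in neither window shown here. None of these motifs overlapped another in the 6 windows. These matches describe letters, not binding.

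Total counts were 30556613 to 48477215 per library, and all 5 genes were among the 16794 that passed the filter on low counts. A count of 0 would allow up to 0.0619 to 0.0982 CPM (counts relative to library size), depending on the library, so the 5 genes lay far above the floor. Levels are CPM scaled by TMM, which sets library sizes after leaving out genes with extreme ratios. It assumes that most genes do not change, which was not tested here. TMM factors were 0.841 to 0.860 in the HGF libraries at 4 h, the lowest of all groups, and scaling by library totals instead moved the median log2 fold change over all genes from -0.06 to -0.35 in HGF against vehicle at 4 h and from -0.0041 to -0.11 at 1 h. With library totals the genes called in HGF against vehicle were 3553 higher and 8732 lower at 4 h, in place of 5555 and 5846, and 1523 higher and 3590 lower at 1 h, in place of 2317 and 1202. All 7 ductal epithelial markers were present (EPCAM, CDH1, KRT7, KRT8, KRT18, KRT19 and MUC1; lowest 46.2 CPM, MUC1). The 5 fibroblast markers summed to 13.2 to 17.4 CPM over all libraries, with COL1A1 at 7.71 to 12.3 CPM, COL3A1 at 3.24 to 6.64 CPM, and COL1A2 and PDGFRB at no more than 4 counts in any library. The 4 leukocyte markers summed to 1.67 to 2.92 CPM, with PTPRC at no more than 4 counts, CD3E at 25 to 57 and CD14 at 11 to 75 counts. The summed level of the ductal markers was 7186 to 7732 CPM in HGF at 4 h and 5604 to 5828 CPM in vehicle at 4 h, and that of 3 endothelial markers (PECAM1, CDH5 and VWF) was 2.84 to 3.35 CPM against 7.26 to 7.85 CPM; the part of these shifts in the results was not tested. In these bulk samples fewer cells expressing a gene and less RNA per cell cannot be told apart.

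HGF raised 4 of the 5 genes at 1 h, beside 13.8% of all genes tested, and all 5 at 4 h, beside 33.1% of all genes. SERPINB2 rose the most, 4.42-fold at 1 h and 16.8-fold at 4 h, followed by PLAUR at 4.06-fold and 5.30-fold. The activators PLAU and PLAT stood 2.47-fold and 2.41-fold above vehicle at 4 h, but at 1 h PLAU was already 2.11-fold higher and PLAT only 1.18-fold. SERPINE2 did not pass the test at 1 h and was 1.35-fold higher at 4 h. After MSP, PLAU, PLAUR and SERPINB2 were 1.17-fold to 1.24-fold higher at 1 h, beside 0.780% of all genes called higher. None of the 5 passed the test at 4 h, beside 1.07% of all genes called in either direction.

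**Figure D1:**
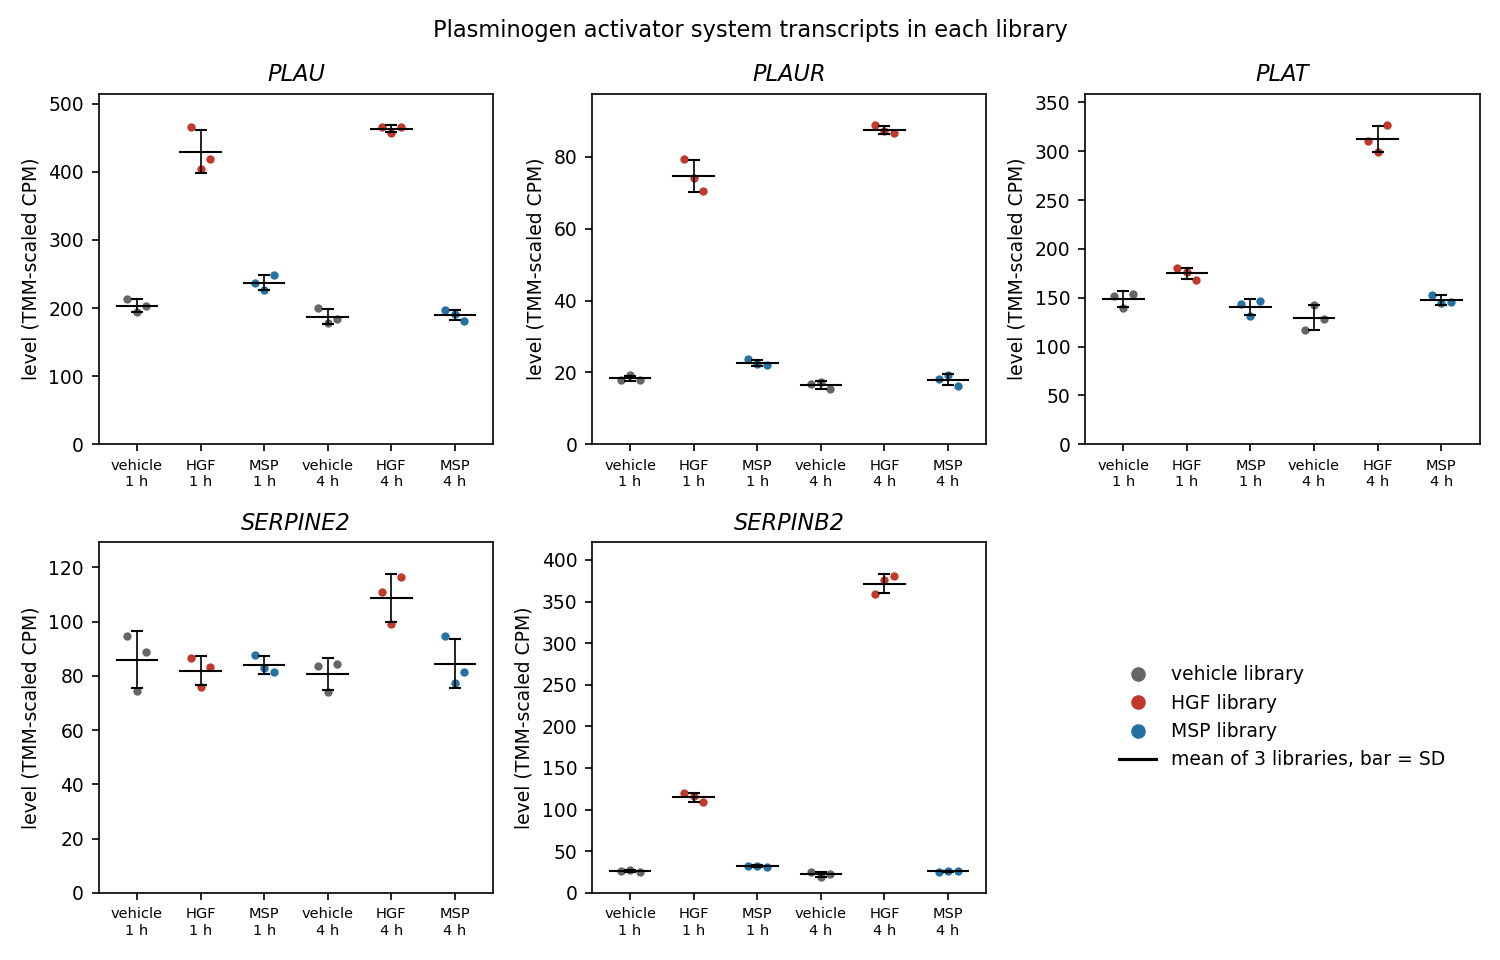
Level of each gene in each of the 18 libraries (points), in TMM-scaled CPM on a linear axis from 0, with the mean and SD of each group of 3. The HGF libraries at 4 h stand above every vehicle library for all 5 genes, and the SERPINB2 panel runs from 19.38 to 380.8 CPM.

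The activators were considered first. PLAU, which encodes urokinase, was at 213.1, 194.5 and 202.5 CPM in the vehicle libraries at 1 h (replicates 1, 2 and 3). It was at 465.6, 404.0 and 419.4 CPM after 1 h of HGF. Every HGF library was thus far above the highest vehicle library. At 4 h PLAU was at 199.4, 177.8 and 184.6 CPM in vehicle and at 466.5, 457.2 and 465.5 CPM after HGF, and the 3 HGF libraries lay within a narrower band than at 1 h (463 ± 5.08 CPM, SD, n = 3, against 430 ± 32.1 CPM). The log2 fold change over vehicle, with its standard error (SE), was 1.08 (SE 0.05, edgeR adjusted p = 2.57e-17) at 1 h and 1.31 (SE 0.05, adjusted p = 5.00e-20) at 4 h.

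PLAT encodes tissue plasminogen activator and lies at chr8:42175233-42207724 on the minus strand (ENSG00000104368). In vehicle its level was 151.6, 139.2 and 154.3 CPM at 1 h; the values at 4 h were 117.1, 143.0 and 128.4 CPM. With HGF it reached 180.2, 175.8 and 168.4 CPM at 1 h, and 310.5, 299.6 and 326.4 CPM were measured at 4 h. No HGF library overlapped the vehicle libraries of its time, but the gap at 1 h was small beside that at 4 h. Its log2 fold change was 0.24 (SE 0.06, adjusted p = 0.00271) at 1 h and 1.27 (SE 0.06, adjusted p = 3.54e-17) at 4 h. The call at 1 h depended on the scaling: with library totals the value was 0.13 (adjusted p = 0.0906).

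The receptor followed the time course of PLAU with a larger change. PLAUR was at 17.77, 19.23 and 17.98 CPM in vehicle at 1 h and at 79.28, 73.99 and 70.40 CPM after HGF. At 4 h the vehicle libraries were at 16.90, 17.24 and 15.38 CPM and the HGF libraries at 88.73, 87.07 and 86.69 CPM. The lowest HGF library of either time was thus far above the highest vehicle library. PLAUR thus had a log2 fold change of 2.02 (SE 0.06, adjusted p = 2.01e-22) at 1 h and 2.41 (SE 0.06, adjusted p = 2.16e-24) at 4 h.

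Of the inhibitors, SERPINB2 was at 25.74, 27.08 and 24.90 CPM in vehicle at 1 h and at 119.5, 115.8 and 108.7 CPM after HGF. At 4 h it was at 24.87, 19.38 and 22.19 CPM in vehicle and at 358.6, 375.6 and 380.8 CPM after HGF. The 3 HGF libraries at 4 h all lay far above the 3 at 1 h, and both sets far above vehicle. SERPINB2 had a log2 fold change of 2.15 (SE 0.06, adjusted p = 1.76e-23) at 1 h and 4.07 (SE 0.06, adjusted p = 2.73e-29) at 4 h. The p at 4 h was the smallest of the 16794 genes tested.

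SERPINE2 showed little of this. It was at 94.59, 74.46 and 88.85 CPM in vehicle and at 86.67, 75.93 and 83.20 CPM in HGF at 1 h, and the HGF libraries lay within the vehicle range. The log2 fold change was -0.07 (95% interval -0.26 to 0.13, adjusted p = 0.689). At 4 h it was at 83.63, 74.00 and 84.40 CPM in vehicle and at 110.7, 98.91 and 116.4 CPM in HGF, without overlap. Its log2 fold change was then 0.43 (SE 0.09, adjusted p = 0.000615), but with library totals it was 0.14 (adjusted p = 0.196), so this rise depended on the scaling. Replicate 2 had the lowest SERPINE2 level in 5 of the 6 groups, as it did for PLAU in 5, PLAT in 4, SERPINB2 in 1 and PLAUR in 0. For PLAUR replicate 3 was the lowest in every group but vehicle at 1 h. For SERPINB2 replicate 3 was the lowest in every group at 1 h. How often such a pattern held over all genes was not counted.

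Every HGF library was above every vehicle library for 4 of the 5 genes at 1 h, which held for 20.1% of all genes, and for all 5 at 4 h, which held for 34.5% of all genes. With library totals PLAU, PLAUR, PLAT and SERPINB2 were still called at 4 h, with log2 fold changes of 1.02, 2.12, 0.98 and 3.78. The median of all genes under that scaling was -0.35.

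**Figure D2:**
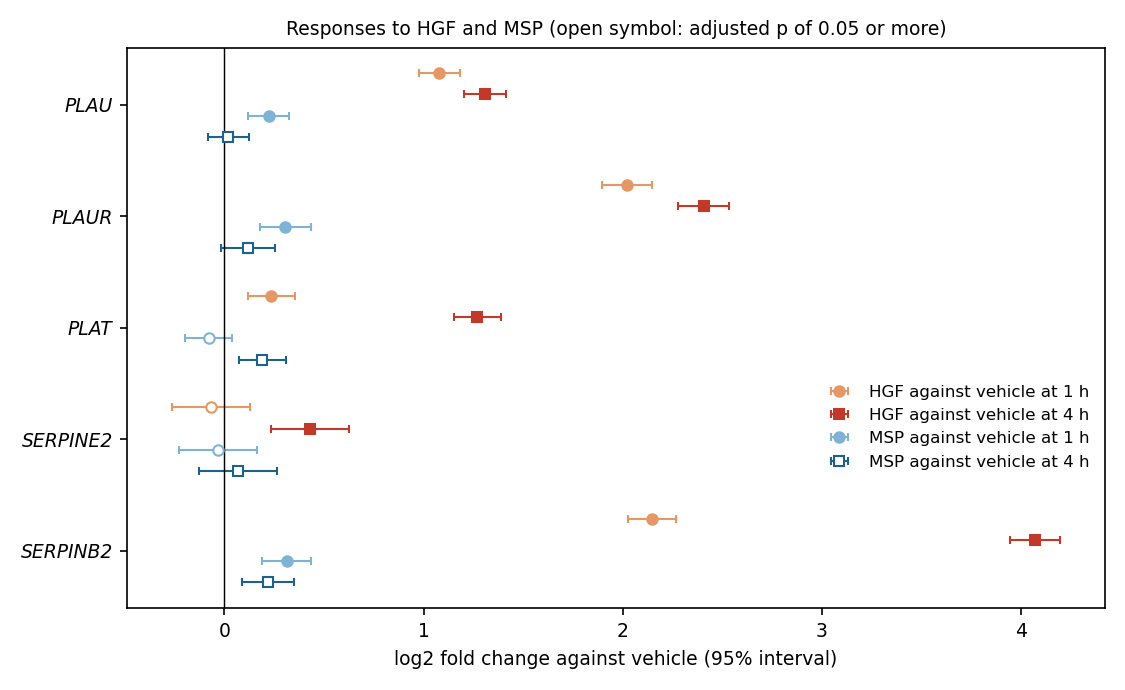
Log2 fold change against vehicle for HGF and MSP at 1 h and 4 h, with 95% intervals; filled symbols passed an adjusted p of 0.05. For each of the 5 genes the HGF value at 4 h (0.43 to 4.07) is the largest of its 4 values, and no MSP value exceeds 0.31.

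The size of the HGF response differed between the times for all 5 genes, tested as an interaction of HGF with time in the same edgeR fit, in which 26.8% of all genes had a higher response at 4 h. For SERPINB2 the response at 4 h exceeded that at 1 h by 1.92 on the log2 scale (SE 0.08, adjusted p = 3.63e-18), and for PLAT by 1.03 (SE 0.08, adjusted p = 1.50e-11). SERPINE2 followed with 0.50 (SE 0.13, adjusted p = 0.00403), PLAUR with 0.38 (SE 0.09, adjusted p = 0.000392) and PLAU with 0.23 (SE 0.07, adjusted p = 0.00827). PLAU and PLAUR had thus reached most of their log2 response by 1 h, while PLAT and SERPINB2 gained much of theirs later. With library totals only 2 of the 5 differences passed the test, those of SERPINB2 (1.74) and PLAT (0.84). Over all 16794 genes 3117 were then higher and 6371 lower, in place of 4498 and 4437. PLAU was then at 0.04 (adjusted p = 0.674), PLAUR at 0.20 (adjusted p = 0.0594) and SERPINE2 at 0.31 (adjusted p = 0.0602).

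The differences between MSP and vehicle were small. At 1 h PLAU was at 237.2, 226.4 and 248.0 CPM, PLAUR at 23.66, 22.29 and 21.98 CPM and SERPINB2 at 32.67, 32.58 and 31.23 CPM. Each of these libraries was above every vehicle library of that time. The log2 fold change was 0.22 for PLAU (SE 0.05, adjusted p = 0.0211), 0.31 for PLAUR (SE 0.06, adjusted p = 0.00663) and 0.31 for SERPINB2 (SE 0.06, adjusted p = 0.00324). Treated libraries all above vehicle were seen for 7.12% of all genes. PLAT was at 143.6, 131.1 and 146.6 CPM and SERPINE2 at 87.62, 82.98 and 81.46 CPM, both overlapping vehicle, with log2 fold changes of -0.08 (95% interval -0.20 to 0.04, adjusted p = 0.820) and -0.03 (95% interval -0.23 to 0.16, adjusted p = 0.961).

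The MSP calls at 1 h depended on which libraries were fitted. The MSP libraries at 1 h also differed more from each other than those of any other group. Chi-square per degree of freedom between pairs was 7.23 to 20.3 there and 3.03 to 5.77 in the other groups. When only the 2 groups compared were fitted, none of the 3 passed (adjusted p = 0.149 for PLAU, 0.128 for PLAUR and 0.0540 for SERPINB2, with log2 fold changes of 0.21, 0.29 and 0.30). Over all genes 73 were then called higher, in place of 131. Without replicate 3 of vehicle at 1 h none passed either (adjusted p = 0.115, 0.0689 and 0.0535), and without replicate 1 of MSP at 1 h SERPINB2 alone did (0.0877 for PLAU and for PLAUR). PLAU also did not pass without replicate 2 of vehicle (0.19, adjusted p = 0.227) or replicate 3 of MSP (0.19, adjusted p = 0.123), nor PLAUR without replicate 1 of vehicle (0.28, adjusted p = 0.0694).

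At 4 h the MSP libraries were at 196.4, 191.6 and 181.5 CPM for PLAU, 18.14, 19.30 and 16.29 CPM for PLAUR and 94.76, 77.48 and 81.26 CPM for SERPINE2. All 3 overlapped vehicle, with log2 fold changes of 0.02 (95% interval -0.08 to 0.12), 0.12 (-0.02 to 0.25) and 0.07 (-0.13 to 0.27). PLAT was at 153.1, 144.3 and 145.7 CPM, each above the 3 vehicle libraries, with a log2 fold change of 0.19 (SE 0.06, adjusted p = 0.120). SERPINB2 was at 24.67, 26.29 and 26.32 CPM, with a log2 fold change of 0.22 (SE 0.06, adjusted p = 0.106). Thus 0 of the 5 genes passed in edgeR and 0 in DESeq2, while 2 (PLAT and SERPINB2) had an unadjusted p under 0.05 in edgeR. Without the filter on low counts these 2 passed, with adjusted p = 0.00444 for PLAT and 0.0152 for SERPINB2. Over all genes 252 were then called higher and 102 lower, in place of 130 and 49. Without replicate 1 of vehicle at 4 h SERPINB2 passed (0.31, adjusted p = 0.00984), as did PLAT without replicate 2 (0.27, adjusted p = 0.0400).

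The change of the MSP response between the times passed for 0 of the 5 genes in edgeR and in DESeq2, beside 0.322% of all genes, and 3 had an unadjusted p under 0.05 in edgeR. The response at 4 h minus that at 1 h was -0.20 for PLAU (adjusted p = 0.369), -0.19 for PLAUR (adjusted p = 0.644), 0.27 for PLAT (adjusted p = 0.235), 0.10 for SERPINE2 (adjusted p = 0.952) and -0.10 for SERPINB2 (adjusted p = 0.907). That of PLAT passed without the filter on low counts (adjusted p = 0.00879) and without replicate 2 of vehicle at 4 h (adjusted p = 0.0377). Without the filter 72 of all genes were higher and 76 lower, in place of 8 and 46. PLAU, PLAUR and SERPINB2 were thus called at 1 h and not at 4 h, but the difference between the times did not pass the test for any of them.

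The 2 ligands, given at 80 and 100 ng/ml, were also compared with each other. At 1 h PLAU was higher after HGF than after MSP by 0.86 on the log2 scale (SE 0.05, adjusted p = 1.07e-14), PLAUR by 1.72 (SE 0.06, adjusted p = 1.22e-20), SERPINB2 by 1.83 (SE 0.06, adjusted p = 9.29e-22) and PLAT by 0.32 (SE 0.06, adjusted p = 0.000130). SERPINE2 did not pass (-0.04, 95% interval -0.23 to 0.16, adjusted p = 0.859). These 4 of 5 genes stand beside 11.4% of all genes called higher after HGF. At 4 h all 5 were higher after HGF, beside 32.7% of all genes, by 1.29 for PLAU, 2.29 for PLAUR, 1.08 for PLAT, 0.36 for SERPINE2 (adjusted p = 0.00251) and 3.85 for SERPINB2 (SE 0.06, adjusted p = 6.87e-29). The last is a 14.4-fold difference and had the smallest p of all genes in that comparison. With library totals the difference for SERPINE2 was 0.06 (adjusted p = 0.559). The comparisons of HGF and of MSP with vehicle share their vehicle libraries at each time, so their values are set side by side and not correlated.

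In vehicle alone, PLAT and SERPINB2 were lower at 4 h than at 1 h, with log2 differences of -0.20 (SE 0.06, adjusted p = 0.0158) and -0.23 (SE 0.06, adjusted p = 0.0110), beside 9.99% of all genes called lower. PLAU was at -0.12 (adjusted p = 0.0980), PLAUR at -0.15 (adjusted p = 0.105) and SERPINE2 at -0.09 (adjusted p = 0.546). Both calls depended on which libraries were included. With 1 library left out the log2 difference was -0.27 to -0.13 for PLAT and -0.32 to -0.14 for SERPINB2. PLAT did not pass without replicate 1 or 3 of vehicle at 1 h (adjusted p = 0.0557 and 0.0711) or without replicate 1 of vehicle at 4 h (-0.13, adjusted p = 0.142). SERPINB2 did not pass without replicate 2 of either vehicle group (adjusted p = 0.0634 for that at 1 h and 0.130 for that at 4 h).

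Levels of different genes were compared only per kilobase of exon. In vehicle at 1 h, with the exons of all GENCODE 29 transcripts, PLAU was at 68.9 ± 3.16 CPM per kilobase (SD, n = 3), PLAT at 22.4 ± 1.21, SERPINE2 at 9.67 ± 1.17, SERPINB2 at 9.43 ± 0.400 and PLAUR at 4.11 ± 0.177. SERPINE2 and SERPINB2 lay within 1 SD of each other. After 4 h of HGF the order was PLAU (157 ± 1.72), SERPINB2 (135 ± 4.23), PLAT (47.2 ± 2.04), PLAUR (19.6 ± 0.243) and SERPINE2 (12.2 ± 1.00), so that SERPINB2 had passed PLAT and PLAUR had passed SERPINE2. With MSP at 4 h the order was that of vehicle, and SERPINE2 (9.50 ± 1.02) and SERPINB2 (9.38 ± 0.344) again lay within 1 SD.

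The order depended in part on which exons were counted. With the exons of the GENCODE basic transcript set, an alternative chosen after seeing the data, PLAT was at 53.8 and SERPINE2 at 27.3 CPM per kilobase in vehicle at 1 h, and the order of all 5 genes was as before there. After 1 h of HGF PLAT (63.4) was then above SERPINB2 (52.8), whereas with all transcripts SERPINB2 (41.7) was above PLAT (26.4). After 1 h of MSP SERPINE2 (26.7) was then above SERPINB2 (14.8), whereas with all transcripts it was the reverse (9.45 and 11.7). At 4 h of HGF PLAU (172) and SERPINB2 (171) were close to equal with the basic set.

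**Figure D3:**
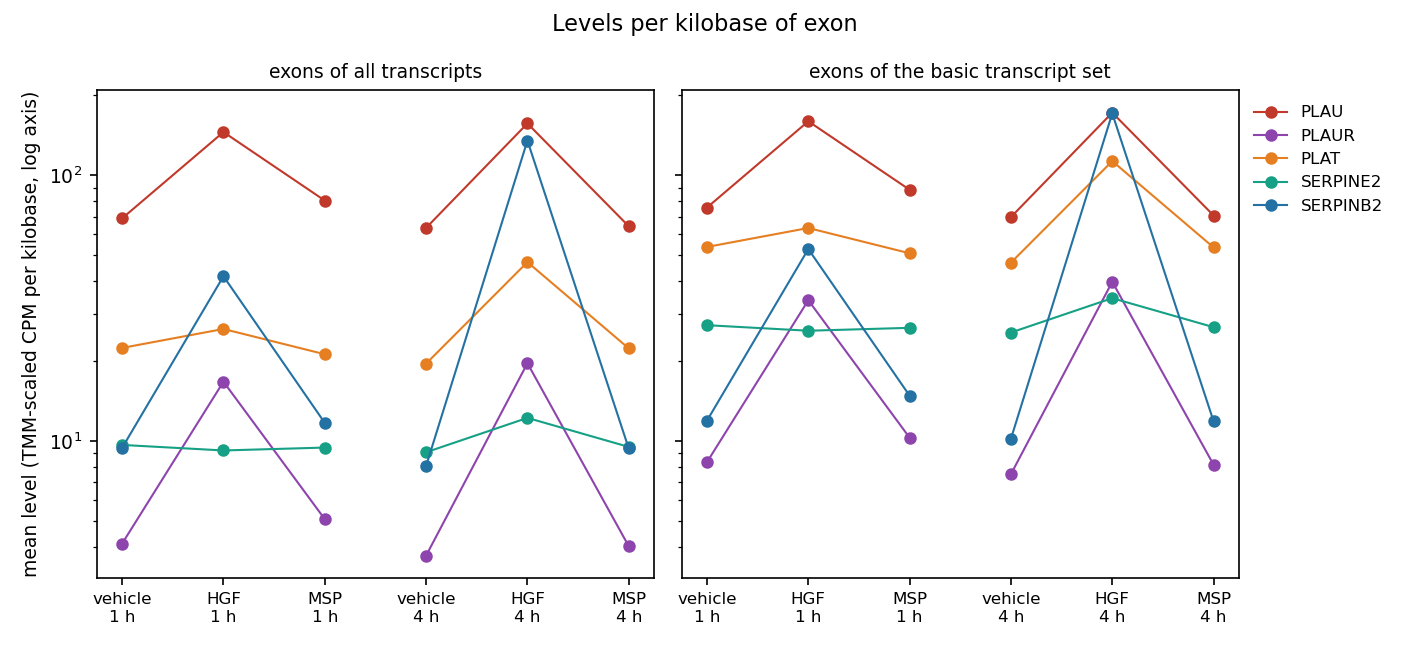
Mean level of the 5 genes per kilobase of exon in each of the 6 groups, in TMM-scaled CPM per kilobase on a log axis, with exons of all transcripts (left) and of the basic set (right); lines join the groups of 1 time only to guide the eye. SERPINB2 moves from near the bottom in vehicle (8.06 at 4 h) to close to PLAU after 4 h of HGF (135 against 157, all transcripts).

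Across the 18 libraries log2 CPM of PLAU and PLAUR had a Pearson correlation of 0.991, the highest of the 10 pairs, and PLAUR and SERPINE2 one of 0.499, the lowest. The genes with a mean of at least 1 CPM whose pattern was most like PLAU were YRDC, TLNRD1 and PHLDA2 (0.995, 0.994 and 0.993). PHLDA2 (0.996) and KLHL21 (0.993) were among the 3 most like PLAUR. For PLAT they were CERS5, ZDHHC5 and CHUK (0.984, 0.983 and 0.981), and for SERPINB2 ETF1, EHD1 and ARHGEF2 (0.998, 0.996 and 0.996). The genes most like SERPINE2 were less close, LY6K, APCDD1L and SERPINB4 (0.897, 0.897 and 0.894). These values are descriptions over 18 libraries of 6 groups, which share treatment, time and depth.

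SERPINB2 lies in the clade B serpin cluster of chromosome 18, and the neighbours were examined with it. Of the 8 tested neighbours, only SERPINB5, which encodes maspin, and SERPINB8 passed at 1 h of HGF, beside 13.8% of all genes called higher. Their log2 fold changes were 0.67 (SE 0.04, adjusted p = 1.58e-14) and 1.14 (SE 0.06, adjusted p = 1.37e-15). At 4 h all 8 neighbours that could be tested were higher, beside 33.1% of all genes: SERPINB8 by 1.97, SERPINB5 by 1.55, SERPINB11 by 1.23, SERPINB10 by 1.11, SERPINB4 by 1.00, SERPINB3 by 0.81, SERPINB13 by 0.43 and SERPINB7 by 0.41. With library totals 7 of the 8 were called higher, beside 3553 of 16794 genes, and SERPINB7 was at 0.12 (adjusted p = 0.362). SERPINB10 did not pass without replicate 2 of HGF at 4 h (0.91, adjusted p = 0.0610). None came near the 4.07 of SERPINB2, and the neighbours differed widely in level: SERPINB5 rose from 383 ± 6.42 to 1120 ± 15.1 CPM at 4 h (SD, n = 3), whereas SERPINB10 was at 0.328 ± 0.0645 and 0.709 ± 0.162 CPM. SERPINB10 shares exons with SERPINB2, and SERPINB3 and SERPINB4 are near-identical copies, so reads may be split between them and their values are uncertain. SERPINB12 and HMSD, with at most 4 counts in a library, were not tested.

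**Figure D4:**
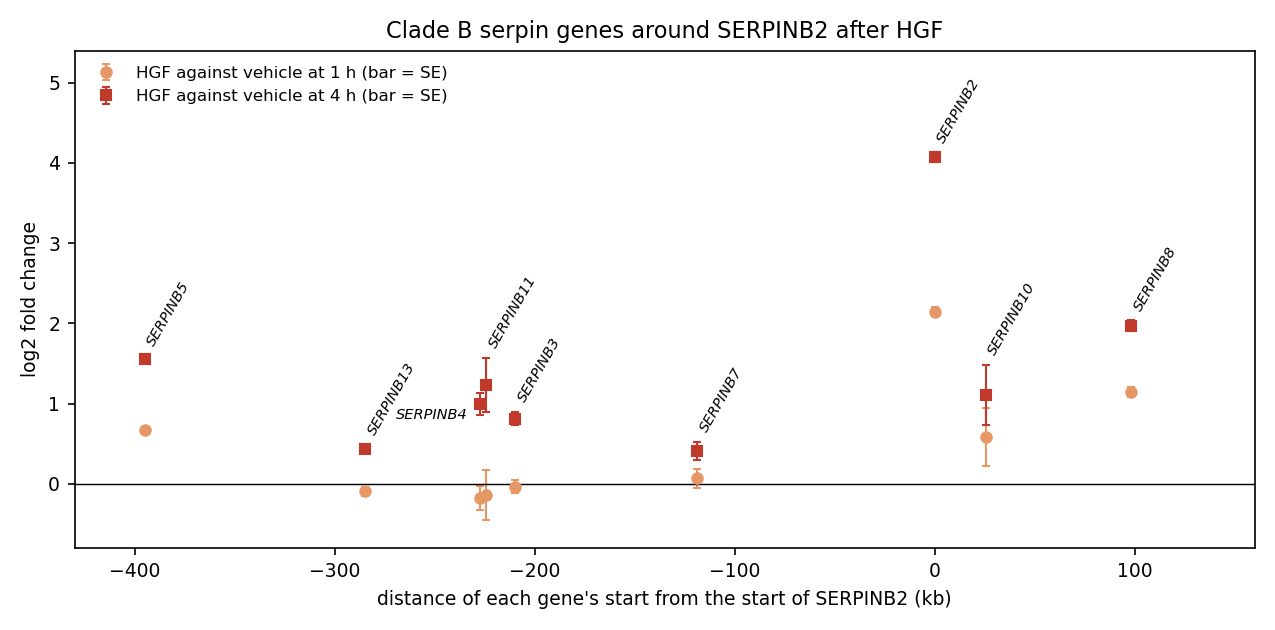
Log2 fold change of HGF against vehicle (bars: SE) at 1 h and 4 h for the tested clade B serpin genes on chromosome 18, by distance of their starts from the start of SERPINB2 in kilobases. SERPINB2 at 0 kb has the highest value at both times (2.15 and 4.07), and the 4 h value is above the 1 h value for every gene shown.

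The wider plasmin system was described by 62 genes in 6 lists, of which 47 were tested. These include the 8 tested neighbours of SERPINB2. Plasminogen itself (PLG) had 0 to 2 counts per library, and the matrix protein vitronectin (VTN), a ligand of the urokinase receptor, had 0 in every library. HGF against vehicle called 15 of the 47 higher and 1 lower at 1 h, beside 13.8% and 7.16% of all genes tested. At 4 h it called 35 higher and 5 lower, beside 33.1% and 34.8% of all genes. MSP called 1 at each time: the tissue factor gene F3 at 1 h (log2 fold change 0.35, SE 0.05, adjusted p = 2.59e-05) and the collagenase gene MMP13 at 4 h (0.29, SE 0.06, adjusted p = 0.0164). The MMP13 call was lost without any 1 of 5 of the 6 libraries compared (adjusted p = 0.0506 to 0.101).

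The next genes encode proteins that hold plasminogen at the cell surface. At 1 h of HGF 3 of the 5 tested were higher, beside 13.8% of all genes, and at 4 h all 5, beside 33.1%. The list medians were 0.13 and 0.66, beside medians of all genes of -0.0041 and -0.06. ANXA2, which with S100A10 forms a plasminogen-binding complex, went from 2087 ± 45.2 to 3627 ± 65.9 CPM at 4 h (0.80, SE 0.04, adjusted p = 5.69e-18). KRT8 (0.68), the plasminogen receptor gene PLGRKT (0.66) and the enolase gene ENO1 (0.64) rose by similar amounts. KRT8 is also one of the ductal markers whose sum rose with HGF. Counts with library totals, here and in the lists below, stand beside 1523 higher and 3590 lower of 16794 genes at 1 h. At 4 h these all-gene counts were 3553 and 8732. With library totals 2 were called higher at 1 h and 4 at 4 h. S100A10 at 1 h (0.13, adjusted p = 0.0440) was among those lost (0.03, adjusted p = 0.666), and also did not pass without any 1 of the 6 libraries compared (adjusted p = 0.0600 to 0.157), without the filter or without robust estimation (0.0598 and 0.0505), or in DESeq2 (0.0573).

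The clearance receptors and partners of the urokinase receptor included 11 tested genes. At 1 h of HGF 3 were higher and 1 lower, beside 13.8% and 7.16% of all genes. At 4 h 5 were higher and 2 lower, beside 33.1% and 34.8% of all genes, with a median of 0.12. The fibronectin receptor subunit ITGA5 went from 40.3 ± 2.02 to 161 ± 3.81 CPM at 4 h (2.0, SE 0.05, adjusted p = 1.81e-24). The integrin subunits ITGA3 (0.76), ITGB1 (0.75) and ITGB5 (0.64) rose less. LRP1, which encodes the endocytic receptor that clears activator and inhibitor complexes, fell by 0.83 (SE 0.12, adjusted p = 3.52e-05); it was named after its value was seen. VLDLR, a related receptor, was lower at 1 h (-0.66, SE 0.12, adjusted p = 6.68e-05) and higher at 4 h (0.62, SE 0.11, adjusted p = 1.07e-05), and its value at 4 h was named after it was seen. With library totals 1 was called higher and 3 lower at 1 h, and 5 higher and 5 lower at 4 h, and ITGA5 and ITGB1 were no longer called at 1 h (adjusted p = 0.138 and 0.179).

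Genes for other inhibitors of this system were mostly too low to test. Of 3 tested, SERPINF2, which encodes the main plasmin inhibitor of blood, was lower at 4 h of HGF, going from 2.71 ± 0.170 to 0.494 ± 0.0899 CPM (-2.46, SE 0.23, adjusted p = 8.80e-11). This was 1 of the 3 tested, beside 34.8% of all genes called lower, and the list median was -0.42 there. In the list of other clade B and E serpins the 11 tested genes were all of clade B, and SERPINE3 was not tested. They include the 8 tested neighbours of SERPINB2 described above, so these counts repeat those genes. The values of SERPINB3, SERPINB4 and SERPINB10 are uncertain, as stated there. Of the 11, 4 were higher at 1 h of HGF, beside 13.8% of all genes, and all 11 at 4 h, beside 33.1%. The medians were 0.07 and 1.11. With library totals 4 were higher and 1 lower at 1 h, and 9 higher and 1 lower at 4 h. SERPINB9, an intracellular inhibitor of granzyme B, went from 18.2 ± 0.523 to 90.2 ± 5.67 CPM at 4 h (2.31, SE 0.06, adjusted p = 2.41e-24). SERPINB1, an inhibitor of neutrophil elastase, rose by 2.0 (SE 0.05, adjusted p = 2.53e-24).

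Proteases that can activate pro-urokinase, and related surface proteases, were mixed. Of 7 tested, 1 was higher at 1 h of HGF, beside 13.8% of all genes. At 4 h 5 were higher and 2 lower, beside 33.1% and 34.8% of all genes, with a median of 0.18. The coagulation factor XII gene F12 rose from 3.86 ± 0.405 CPM in vehicle to 14.01 ± 1.85 CPM with HGF (1.86, SE 0.12, adjusted p = 2.28e-14) and KLK10 rose by 0.95. The prostasin gene PRSS8 fell by 0.84 (SE 0.06, adjusted p = 4.56e-14). With library totals 1 was higher and 3 lower at 1 h, and 2 were higher and 4 lower at 4 h. CTSL (0.37) was among those no longer called higher (0.08, adjusted p = 0.133).

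The last list held matrix genes, matrix metalloproteinases and F3. Of 10 tested, 4 were higher at 1 h of HGF, beside 13.8% of all genes, and 9 at 4 h, beside 33.1%, with medians of 0.09 and 1.34. F3, which encodes the initiator of coagulation, went from 694 ± 21.7 to 2448 ± 53.4 CPM at 1 h and from 514 ± 44.1 to 3891 ± 169 CPM at 4 h (2.92, SE 0.05, adjusted p = 1.31e-27). MMP1, interstitial collagenase, went from 41.4 ± 2.89 to 296 ± 8.98 CPM at 4 h (2.84, SE 0.06, adjusted p = 7.21e-27). The laminin subunit gene LAMA3 rose by 1.09 (SE 0.05, adjusted p = 6.85e-18). With library totals 4 were higher and 3 lower at 1 h, and 8 were higher at 4 h.

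**Figure D5:**
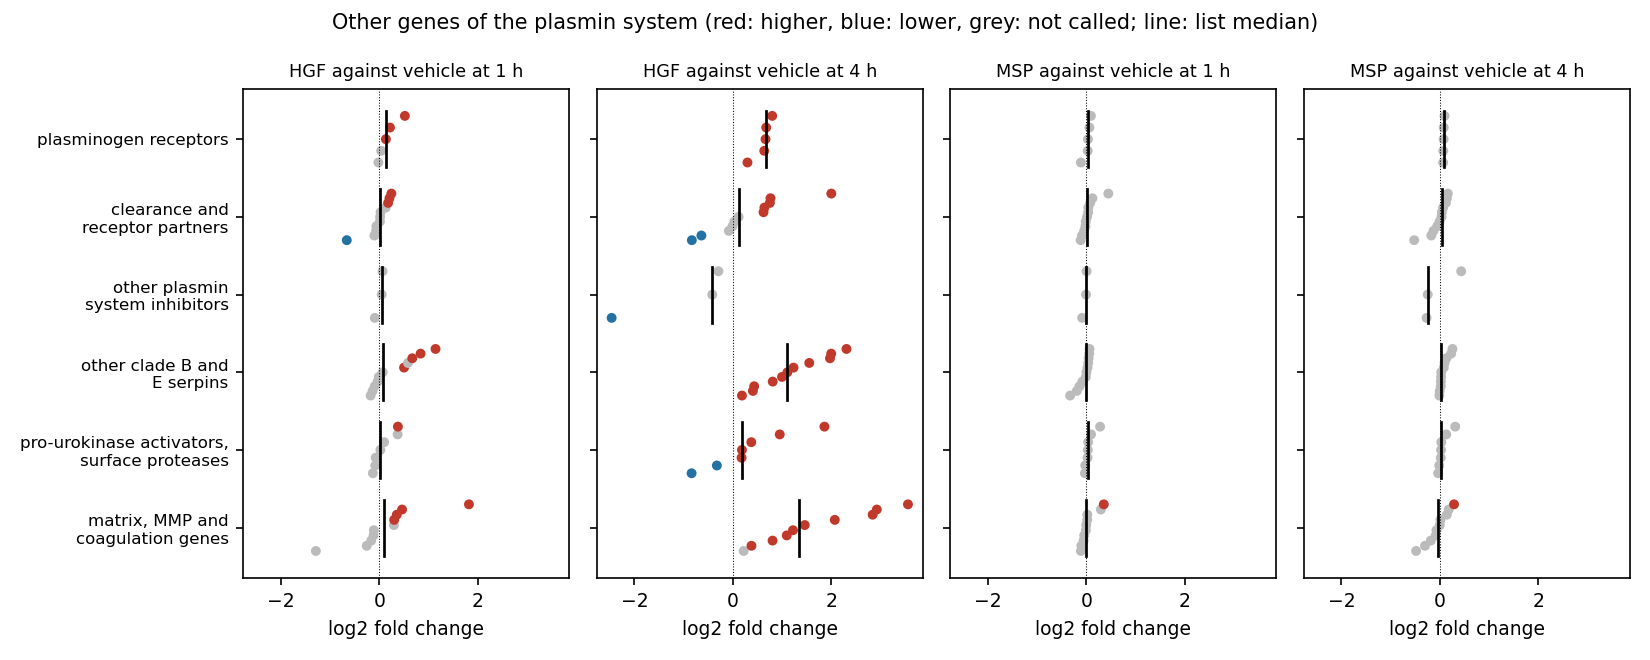
Log2 fold change of the 47 tested genes of the 6 lists (points, 1 gene each) against vehicle for HGF and MSP at 1 h and 4 h; red points were called higher, blue lower, grey neither, and the black line is the list median. Red points are most numerous in the panel for HGF at 4 h (35 genes), while each MSP panel holds 1.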

How the data were processed

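RNA-seq libraries (KAPA mRNA HyperPrep, per the labels' protocols) of 18 BxPC-3 samples were deposited as 1 table of whole-number gene counts. The submitters' processing notes name STAR, featureCounts and Subread. Their versions, the build, the annotation and the strand setting were not given in the sources used here. Each sample was sequenced in 2 lanes, per the labels, and the deposited counts hold 1 column per sample. No row lacked a gene identifier and every column was used.

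Symbols came from a table of gene names. Genes passing edgeR's filterByExpr (minimum count 10, minimum total 15) were scaled by TMM and fitted with edgeR 4.0.16 in R 4.3.3 (robust quasi-likelihood, 1 mean per group over all 18 libraries), for 9 comparisons. Benjamini-Hochberg adjustment covered all 16794 genes, with a threshold of 0.05. Log2 CPM for correlations used a prior count of 2. Per-kilobase levels and overlaps used GENCODE 29, and upstream sequence RefSeq windows. The fit was also run on simulated data in which few genes changed, in either direction. That run cannot bear on the choice of scaling. Floors are 3 counts and cover counting error only.

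Alternatives were library totals, no filter, no robust estimation, a replicate block, fitting only the groups compared, leaving out each library, DESeq2 1.42.0, and basic-set exon lengths. Replicate numbers were not taken as pairing the libraries, since in no comparison did all same-numbered libraries correlate above 0.1.

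The members and lists were chosen with earlier results of these data known. The 5 members were named in every comparison. Of each list, up to 4 called genes with the smallest adjusted p and a mean of at least 1 CPM were named for each ligand against vehicle, besides genes that neighbour SERPINB2 or overlap a member. For each member the 3 genes with the highest correlation were named. Some genes that these rules name are not reported here.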

Additional observations from a re-analysis of the deposited data

Results flagged for a closer look

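The response to HGF differed between 1 h and 4 h for each of the 5 genes, by the interaction of HGF with time in edgeR. The response at 4 h was larger by 1.92 on the log2 scale for SERPINB2, 1.03 for PLAT, 0.50 for SERPINE2, 0.38 for PLAUR and 0.23 for PLAU. Only those of SERPINB2 and PLAT also passed with library totals, where 3117 of all 16794 genes were higher, in place of 4498. Leaving out any 1 of the 12 libraries compared kept all 5 calls.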

How the results depend on the processing

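Of 45 values of the 5 genes over 9 comparisons, all kept their direction and their side of the threshold without robust estimation and in DESeq2, 41 without the filter on low counts, 41 when only the groups compared were fitted and 38 with library totals. Of 330 values with 1 library left out, 307 did, 13 were no longer called, 4 became called and 6 changed sign, all 6 uncalled. The 6 came from 5 results, whose values with 1 library left out ranged from -0.17 to 0.000276 (SERPINE2, HGF at 1 h), -0.13 to 0.0413 (SERPINE2, MSP at 1 h), -0.0789 to 0.0127 (SERPINE2, HGF against MSP at 1 h), -0.0159 to 0.0673 (PLAU, MSP at 4 h, also -0.00596) and -0.0237 to 0.13 (SERPINE2, MSP at 4 h).

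The number of the 5 genes called moved from 5 to 2 for the difference in HGF response between times with library totals. Over all genes 4498 higher and 4437 lower became 3117 and 6371. Without the filter it moved from 0 to 2 for MSP at 4 h, where 130 higher and 49 lower of all genes became 252 and 102. It moved from 0 to 1 for the difference in MSP response, where 8 and 46 became 72 and 76. With only the groups compared it moved from 3 to 0 for MSP at 1 h, where 131 and 9 became 73 and 8. Leaving out 1 library gave 0 to 3 for MSP at 1 h, 0 to 1 for MSP at 4 h and for the difference in MSP response, and 1 to 2 for vehicle over time. For these shifts the cause was not tested. PLAU in vehicle over time was called with library totals (-0.14, adjusted p = 0.0440), without the filter (-0.13, 0.0288), with only the groups compared (-0.13, 0.0268) and without replicate 1 of vehicle at 4 h (-0.17, 0.0438).

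Same-numbered libraries deviated together weakly if at all. Of the 18 correlations in the difference of MSP responses (-0.06 to 0.12), 1 was over 0.1, and none was in the other comparisons. The numbers were thus not taken as pairing. With a replicate block 44 of 45 values kept their call, and PLAU in vehicle over time was called (-0.12, adjusted p = 0.0430).

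Of 47 values of the other named genes, 42 kept their call with library totals, 46 without the filter, without robust estimation or in DESeq2, and 47 with the block or with only the groups compared. Of 282 with 1 library left out, 270 did and 12 were no longer called. None changed sign.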
